A study of Rattus norvegicus with 8 samples.

Results

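Transcripts of the subunits of protein kinase A and of the transcription factors Creb1 and Crem were examined in whole rat ovary. The genes were chosen by name as Prkar1a, Prkar1b, Prkar2a, Prkar2b, Prkaca, Prkacb, Creb1 and Crem. They are 8 of the 26204 gene names with a usable probe on an Agilent 1-colour rat expression array. They were measured by 13 of its 30367 probes, and all 13 passed the filter on dim probes that left 25303 probes for testing. Prkaca had 2 probes, Crem had 5 and each of the other 6 genes had 1. A gene with several probes is represented by the probe with the highest mean over all arrays, and its other probes are given beside it.

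The study compared ovaries of female rats given pregnant mare serum gonadotropin (PMSG), which acts mainly like follicle-stimulating hormone and in part like luteinising hormone, with ovaries of rats given only its vehicle. Per the labels, PMSG (50 IU) or its carrier alone was given subcutaneously to rats aged 26 days, the carrier being a phosphate buffer with albumin (0.2 ml). The ovaries were collected after 48 h, when the rats were 28 days old. There were 4 arrays labelled control and 4 labelled PMSG, each hybridised with Cy3-labelled cRNA from 500 ng of total RNA. The labels name no strain and do not say whether replicates came from separate animals, so the p-values measure the spread between these samples only. The groups are called arrays labelled control and arrays labelled PMSG, because several gonadotropin-responsive genes in these data ran against the direction generally known for the hormone.

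Protein kinase A is the main effector of cyclic AMP, the second messenger made when follicle-stimulating or luteinising hormone binds its receptor on ovarian cells. In the resting enzyme a dimer of regulatory subunits holds catalytic subunits inactive, and cyclic AMP bound to the regulatory subunits sets the catalytic subunits free. These then phosphorylate targets that include Creb1, a factor that binds the cyclic AMP response element in DNA. Crem encodes activators and repressors that bind the same element, and its internal promoter gives rise to the short inducible repressor ICER.

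The sequences below show which part of Crem each probe read, because the results for this gene turn on that. Crem transcripts can end in either of a pair of alternative coding ends, and a probe lies in each. The probe of end II starts 396 bases after that of end I. Whether it also reads transcripts that stop at end I was not tested. Both probes run 5′ to 3′ on the plus strand of chromosome 17 in the build rn4, from 62835959 to 62836018 for end I and from 62836355 to 62836414 for end II. Each closes with a stop codon, given in capitals, and the pair carry the same base at 39 of 60 positions.
Crem coding end I: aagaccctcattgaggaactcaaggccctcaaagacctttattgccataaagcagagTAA
Crem coding end II: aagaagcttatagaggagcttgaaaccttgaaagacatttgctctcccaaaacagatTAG
A further probe of Crem (62822636 to 62822695) read an internal first exon. Of its 60 bases, 47 lay within the window of 300 bases around the second of 3 Crem transcript starts in RefSeq (build GRCr8), from the fourth base of the transcript on. The other probes lay after the stop codon of end II, a near one from 62836427 to 62836486 and a far one from 62837437 to 62837496.

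The 250 bases before that second start, and before the third, are shown because they hold the cyclic AMP response element. Both are on the plus strand of chromosome 17 in GRCr8, chr17:58984547-58984796 and chr17:58985240-58985489, and capitals mark TGACGTCA, which reads the same on both strands.
Crem before the second start: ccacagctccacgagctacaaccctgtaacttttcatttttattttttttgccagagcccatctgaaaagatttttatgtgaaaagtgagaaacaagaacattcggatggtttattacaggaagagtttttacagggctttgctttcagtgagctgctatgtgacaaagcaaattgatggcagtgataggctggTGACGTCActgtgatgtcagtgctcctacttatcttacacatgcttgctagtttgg
Crem before the third start: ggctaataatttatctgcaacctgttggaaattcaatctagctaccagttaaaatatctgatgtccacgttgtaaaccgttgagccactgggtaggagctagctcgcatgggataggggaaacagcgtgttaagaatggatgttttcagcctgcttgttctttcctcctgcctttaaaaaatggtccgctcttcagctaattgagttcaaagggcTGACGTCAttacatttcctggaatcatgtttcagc

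RefSeq promoter windows (250 bases before to 50 after each start, GRCr8) were found for 7 of the 8 genes, 11 windows in all. TGACGTCA was present in 2 of the 11, both of Crem, against 1.83% of all 33469 windows. The core TGACG, searched on both strands and contained in the longer motif, was present in 6 of the 11 windows and in 21.2% of all windows. It was found in windows of Prkaca, Prkacb, Creb1 and Crem and not in those of Prkar1a, Prkar1b or Prkar2b. A match of letters is a description and not a measured binding site.

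Values below are scaled log2 signals, that is log2 of the spot signal minus the 75th percentile of that array. A value of 1 is a signal 2-fold above that percentile, and the levels of single genes are compared between arrays for the same probe. Ratios of 2 genes and sums over marker genes combine probes within an array, and are read only for their difference between arrays. The 75th percentile lay between 1002 and 1103 signal units on arrays labelled control and between 768.9 and 1082 on arrays labelled PMSG, and 80.8% to 84.6% of probes were well above background. All 13 probes were well above background on every array except the first-exon probe of Crem, which was so on 4 arrays labelled control and on 2 labelled PMSG. Ovarian markers were present in both groups, with all 6 measured granulosa cell genes (Fshr, Amh, Inha, Foxl2, Nr5a1 and Esr2) well above background on all 8 arrays. Precision is limited by having 4 arrays in each group.

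Of the 8 genes, Prkar1b rose in arrays labelled PMSG, and Prkar1a, Prkar2b and Creb1 fell (limma, Benjamini-Hochberg adjusted over all 25303 probes, threshold 0.05). Over all probes 34.2% passed, 17.6% higher and 16.6% lower in arrays labelled PMSG, and of the 13 member probes 30.8% passed. Of all called probes 51.4% were higher, against 34.5% with the arrays centred on their median and 61.3% without PMSG array 4. By gene, with the brightest probe of each, 50% of the 8 passed, since 5 of the probes that did not pass belong to Crem. The labels did not overlap at 4 of the 13 member probes and at 36.6% of all tested probes. These shares were not tested against the background. The median log2 difference was -0.05 over the 13 probes and 0.11 over all tested probes, where median centring gave -0.05 for all tested probes. No member reached a 2-fold difference, which 14% of all tested probes did. In bulk ovary RNA, fewer cells of a type and less RNA per cell cannot be told apart.

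**Figure D1:**
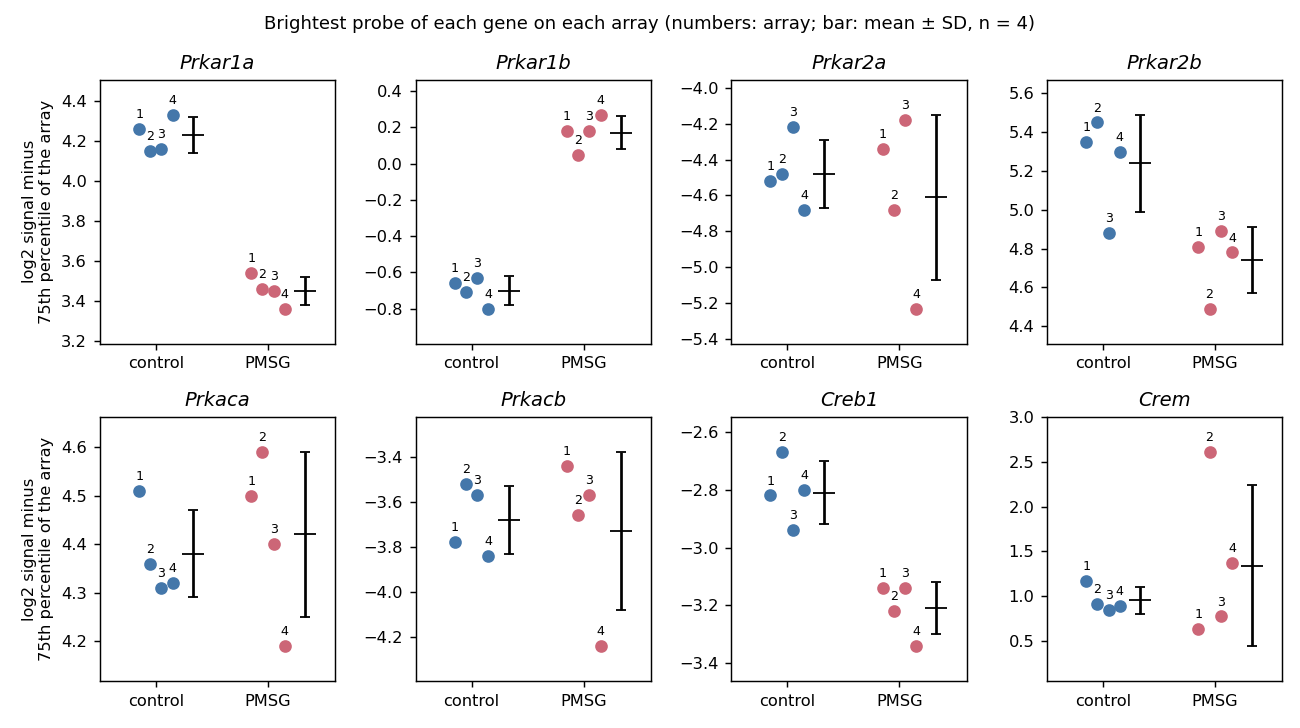
Scaled log2 signal (log2 signal minus the 75th percentile of the array) of the brightest probe of each gene; points are arrays, numbered by replicate, and bars give the mean ± SD (n = 4). Each panel has its own scale. Prkar1a, Prkar1b and Creb1 were separated without overlap between the labels, as were 36.6% of all tested probes. PMSG array 2 stood at 2.61 for Crem, above 0.63 to 1.37 on the other arrays labelled PMSG.

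Prkar1a encodes the type I alpha regulatory subunit, present in most tissues and needed to keep the kinase inactive without cyclic AMP. Its scaled log2 signal was 4.26, 4.15, 4.16 and 4.33 on arrays 1 to 4 labelled control. On arrays 1 to 4 labelled PMSG it was 3.54, 3.46, 3.45 and 3.36. Every array labelled PMSG lay below every array labelled control. The means were 4.23 ± 0.09 (SD, n = 4) and 3.45 ± 0.07 (SD, n = 4), a log2 difference of -0.78 (SE 0.09, 95% interval -0.98 to -0.57, limma adjusted p = 5.34e-04), or 1.71-fold less. The difference was -0.79 within row 1 of the slide and -0.76 within row 2, with 2 arrays of each label per row. The array files place this probe on chromosome X from 148642221 to 148642280 in rn4, whereas RefSeq lists Prkar1a on chromosome 10, and whether the probe also reads a related copy was not tested.

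Prkar1b encodes the type I beta regulatory subunit, best known from the nervous system. Its scaled log2 signal was -0.66, -0.71, -0.63 and -0.80 on arrays 1 to 4 labelled control, and 0.18, 0.05, 0.18 and 0.27 on arrays 1 to 4 labelled PMSG. All arrays labelled PMSG lay above all arrays labelled control. The means were -0.70 ± 0.08 (SD, n = 4) and 0.17 ± 0.09 (SD, n = 4), a log2 difference of 0.87 (SE 0.09, 95% interval 0.66 to 1.08, limma adjusted p = 3.57e-04), or 1.83-fold more. The difference was 0.87 within each row of the slide. The probe is placed at 16131001 to 16131060 on chromosome 12 (rn4). In absolute size this difference exceeded that of 82.2% of all tested probes, and that of Prkar1a exceeded 78.4%.

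The 2 type I subunits thus moved in opposite directions. The log2 ratio of Prkar1a to Prkar1b within an array ran from 4.78 to 5.14 on arrays labelled control and from 3.08 to 3.41 on arrays labelled PMSG, so that the groups did not overlap. The ratio fell by 1.65 on the log2 scale. The exact two-sided permutation test gave p = 0.0286, the smallest that 4 arrays against 4 allow, and 0.114 after adjustment over the 4 pairs of related genes compared, so a single pair could not pass. The 250 bases before the Prkar1a start, chr10:95120287-95120536, and before the upstream of 2 Prkar1b starts, chr12:20625674-20625923 (both GRCr8, plus strand), are shown for this pair; neither holds TGACG on either strand.
Prkar1a: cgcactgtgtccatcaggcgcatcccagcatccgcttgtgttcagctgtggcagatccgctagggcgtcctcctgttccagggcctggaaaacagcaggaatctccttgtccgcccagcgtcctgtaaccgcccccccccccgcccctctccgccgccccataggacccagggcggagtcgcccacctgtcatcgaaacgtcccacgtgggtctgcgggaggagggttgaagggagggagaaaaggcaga
Prkar1b: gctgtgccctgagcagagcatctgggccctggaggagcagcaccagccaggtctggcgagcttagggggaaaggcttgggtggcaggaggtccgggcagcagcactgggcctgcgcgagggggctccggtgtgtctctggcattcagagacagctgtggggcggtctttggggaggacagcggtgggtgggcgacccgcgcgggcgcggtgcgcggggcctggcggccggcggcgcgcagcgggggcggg

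Prkar2b encodes the type II beta regulatory subunit, known to be induced by follicle-stimulating hormone in granulosa cells. Its scaled log2 signal was 5.35, 5.45, 4.88 and 5.30 on arrays 1 to 4 labelled control, and 4.81, 4.49, 4.89 and 4.78 on arrays 1 to 4 labelled PMSG. The groups overlapped, since control array 3 (4.88) lay below PMSG array 3 (4.89). The means were 5.24 ± 0.25 (SD, n = 4) and 4.74 ± 0.17 (SD, n = 4), a log2 difference of -0.50 (SE 0.15, 95% interval -0.85 to -0.15, limma adjusted p = 0.0350), or 1.41-fold less. This call was close to the threshold. It was lost without control array 1 (adjusted p = 0.0883), 2 (0.0952) or 4 (0.0851) and without PMSG array 1 (0.0616) or 2 (0.0826). It was also lost with the slide row (0.0510) or the replicate number (0.0887) as a block. Over all alternatives tried the adjusted p ran from 0.0113 to 0.0952. The difference was -0.68 within row 1 and -0.32 within row 2. The probe, printed in 10 spots per array, is placed at 50235093 to 50235152 on chromosome 6 (rn4).

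Prkar2a encodes the type II alpha regulatory subunit, which A-kinase anchoring proteins tether to membranes and the cytoskeleton. Its scaled log2 signal was -4.52, -4.48, -4.22 and -4.68 on arrays labelled control and -4.34, -4.68, -4.18 and -5.23 on arrays labelled PMSG. The groups overlapped, and the lowest value was that of PMSG array 4. The log2 difference was -0.13 (SE 0.23, 95% interval -0.66 to 0.39) and did not pass (limma adjusted p = 0.665). Quantile normalization brought it to -0.37 and past the threshold (adjusted p = 0.0425), while without PMSG array 4 it was 0.07 (0.721), so no direction holds for this gene. It was 0.15 within row 1 of the slide and -0.41 within row 2. The adjusted p ran from 0.0425 to 0.977 over all alternatives. Its probe is placed at 113805153 to 113805212 on chromosome 8 (rn4), and its unscaled signals were low, 28.8 to 53.6. The log2 ratio of Prkar2a to Prkar2b differed by 0.37, less than arrays of one label differed among themselves (two-sided exact permutation p = 0.457, adjusted 0.486).

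Neither catalytic subunit passed the threshold (limma), and neither had an unadjusted p under 0.05 at its brightest probe. Prkaca, the catalytic alpha subunit that carries most of the activity in many tissues, stood at 4.51, 4.36, 4.31 and 4.32 on arrays labelled control and at 4.50, 4.59, 4.40 and 4.19 on arrays labelled PMSG. The groups overlapped almost fully. A log2 difference of 0.05 (SE 0.11, 95% interval -0.21 to 0.30) resulted, with limma adjusted p = 0.771, and its sign turned under median centring (-0.12). Within rows of the slide it was 0.15 and -0.06. This probe lies downstream of the stop codon, at 25840817 to 25840876 on chromosome 19 (rn4). A dimmer Prkaca probe reads the coding end (25842289 to 25842348, minus strand), with the stop codon in capitals.
Prkaca coding end: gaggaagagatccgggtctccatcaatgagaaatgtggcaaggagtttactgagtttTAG
At this coding end the scaled log2 signal was -2.57, -2.47, -1.78 and -2.52 on arrays labelled control and -2.67, -2.66, -2.68 and -3.02 on arrays labelled PMSG. The groups did not overlap, as they did not for 36.6% of all tested probes. Control array 3 and PMSG array 4 each lay far from the rest of their group. The log2 difference of -0.42 (SE 0.19) missed the threshold (limma adjusted p = 0.124), but passed under quantile normalization (0.0381) and median centring (0.0291), in a range up to 0.201. Without control array 3 it was -0.24 (adjusted p = 0.200). The difference was -0.18 within row 1 and -0.67 within row 2.

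Prkacb encodes the catalytic beta subunit. Its scaled log2 signal was -3.78, -3.52, -3.57 and -3.84 on arrays labelled control and -3.44, -3.66, -3.57 and -4.24 on arrays labelled PMSG. The groups overlapped, with PMSG array 4 lowest. The log2 difference was -0.05 (SE 0.18, 95% interval -0.47 to 0.37, limma adjusted p = 0.842). Within rows it was 0.07 and -0.17. The 60 bases of its probe are placed over a span of 5336 bases, 244949415 to 244954750 on chromosome 2 (rn4). The log2 ratio of Prkaca to Prkacb differed by 0.10 (two-sided exact permutation p = 0.486, adjusted 0.486). For both catalytic genes, changes within these intervals were not detectable with 4 arrays per label.

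**Figure D2:**
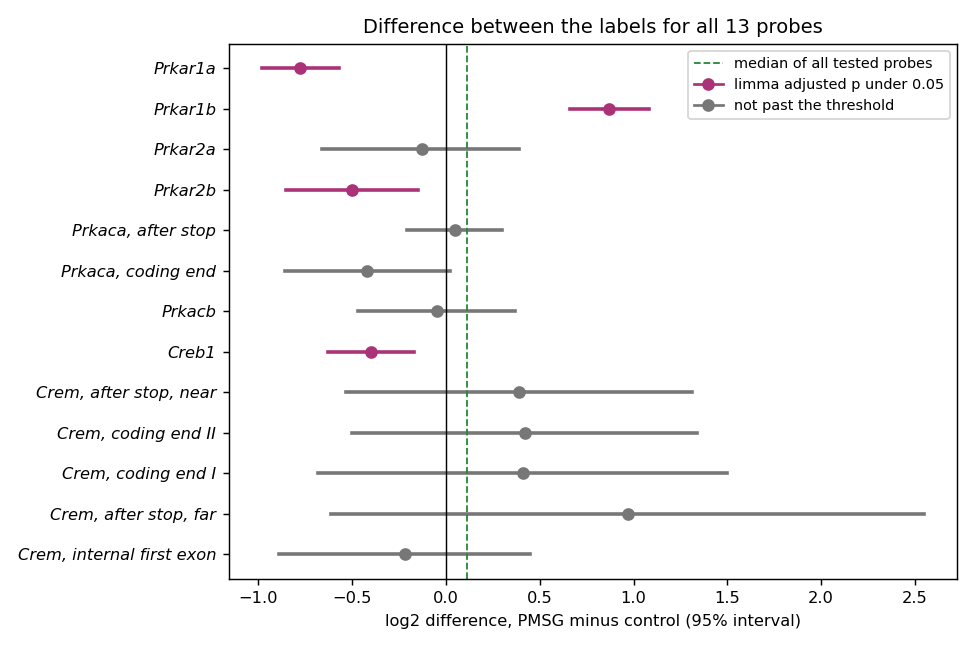
Log2 difference of arrays labelled PMSG minus arrays labelled control for all 13 probes, with the 95% interval from limma; the dashed line is the median of all tested probes, 0.11. Prkar1b rose (0.87), Prkar1a (-0.78), Prkar2b (-0.50) and Creb1 (-0.40) fell, and the 5 Crem probes had wide intervals that include 0.

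Creb1, the factor that the free catalytic subunit activates, was read by a single probe, at 63210434 to 63210493 on the plus strand of chromosome 9 (rn4), shown because its call was lost with another background correction. Its unscaled signals were 87.4 to 166.
Creb1: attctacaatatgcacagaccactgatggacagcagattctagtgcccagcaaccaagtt
Its scaled log2 signal was -2.82, -2.67, -2.94 and -2.80 on arrays 1 to 4 labelled control, and -3.14, -3.22, -3.14 and -3.34 on arrays 1 to 4 labelled PMSG. All arrays labelled PMSG lay below all arrays labelled control. The means were -2.81 ± 0.11 (SD, n = 4) and -3.21 ± 0.09 (SD, n = 4), a log2 difference of -0.40 (SE 0.10, 95% interval -0.63 to -0.17, limma adjusted p = 0.0151), or 1.32-fold less. With normexp background correction the difference was -0.22 and the call was lost (adjusted p = 0.0843, in a range from 0.00485 to 0.0843). The call was also lost with the replicate number as a block (limma adjusted p = 0.0542). The difference was -0.44 within row 1 of the slide and -0.36 within row 2.

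Crem varied most of the 8 genes among arrays labelled PMSG, and none of its 5 probes passed the threshold (limma) or had an unadjusted p under 0.05. At the probe near the stop codon, the brightest, the scaled log2 signal was 1.17, 0.91, 0.84 and 0.89 on arrays 1 to 4 labelled control, and 0.63, 2.61, 0.77 and 1.37 on arrays 1 to 4 labelled PMSG. PMSG array 2 stood 3.16-fold above the control mean, whereas PMSG arrays 1 and 3 lay below all arrays labelled control. The labels differed by 0.39 (SE 0.40, limma adjusted p = 0.462), and without PMSG array 2 it was -0.03 (adjusted p = 0.919). A single array therefore set the sign. The difference was 0.79 within row 1 of the slide and -0.01 within row 2.

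The same array stood apart at the other 4 Crem probes. At coding end I, PMSG array 2 stood at 0.85 against -1.60 to -0.74 on the other arrays labelled PMSG, and at coding end II at 2.60 against 0.56 to 1.07. Both coding-end probes were thus high in this sample, 3.85-fold above the control mean at end I and 3.34-fold at end II. At the far probe it stood at 1.03, which was 8.77-fold above the control mean, and PMSG array 4 followed at -0.94 against -2.56 and -2.05 on PMSG arrays 1 and 3. Arrays labelled control lay within -2.13 to -2.06 there.

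The first-exon probe, which reads transcripts begun at the internal start, was dim everywhere, with unscaled signals from 8.31 to 26.6. Its scaled log2 signal was -6.03, -5.99, -6.21 and -5.65 on arrays 1 to 4 labelled control, and -6.46, -5.27, -6.53 and -6.51 on arrays 1 to 4 labelled PMSG. PMSG array 2 was again the highest, and PMSG arrays 1 and 3 were not well above background. The labels differed by -0.22 (SE 0.29, limma adjusted p = 0.571), and by -0.53 without PMSG array 2, which passed (adjusted p = 0.0325). At this signal a difference in either direction is weakly determined, and normexp background correction gave 0.09.

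At the 4 Crem probes well above background on every array, PMSG array 2 exceeded the next array labelled PMSG by 1.25 to 1.97 on the log2 scale. It was at least 2-fold above the next on 0.229% of all tested probes, and on none of the 8 probes of other members. The log2 ratio of Creb1 to Crem differed by -0.79 between the labels (two-sided exact permutation p = 0.171, adjusted 0.343), and PMSG array 2 was again the farthest, at -5.83 against -4.70 to -3.77 on the others labelled PMSG. Without that array the difference was -0.37 (adjusted exact permutation p = 0.457).

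**Figure D3:**
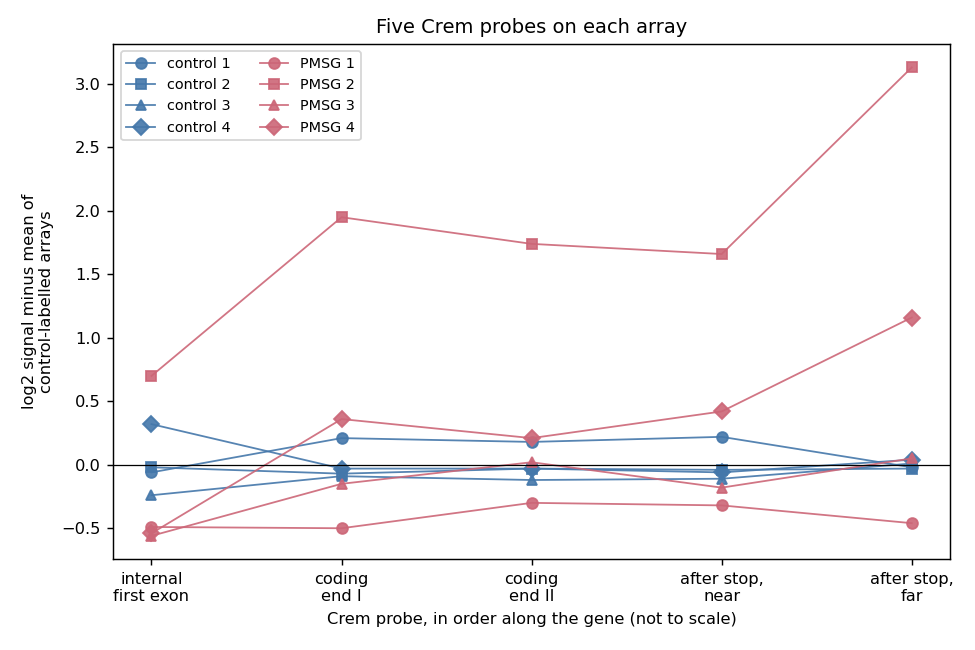
Scaled log2 signal of 5 Crem probes on each of the 8 arrays, minus the mean of the arrays labelled control for that probe; probes are ordered along the gene, not to scale. PMSG array 2 lay 0.70 above the control mean at the internal first exon and 1.66 to 3.13 above it at the other probes, while control arrays stayed between -0.24 and 0.32.

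By root mean square distance between profiles over the 8 arrays, each minus its own mean, the genes most like Prkar1b among 22943 probes well above background on all arrays were Tnfsf12 (distance 0.0529 on the log2 scale), LOC100192314 (0.0538) and Pdk2 (0.0628). Their log2 differences were 0.93, 0.91 and 0.83. Those most like Prkar1a were Utp18 (0.0346), Ilvbl (0.0423) and Ifrd1 (0.0429), with log2 differences of -0.78, -0.81 and -0.79.

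Other genes of the cyclic AMP pathway were read from 8 lists. Of 90 genes tested 10 rose and 29 fell, 43.3% in all against 34.2% of all probes. Adenylyl cyclases, which make cyclic AMP, moved in both directions. Of 14 tested adenylyl cyclases and G protein subunits, 2 rose and 4 fell, with a median log2 difference of 0.01. The falls include the G protein subunits Gnai2 (-0.26) and Gnai3 (-0.43), named here to complete the count, which do not make cyclic AMP. One of the rises was that of Adcy8, named here because of its values, which was well above background on the 4 arrays labelled PMSG and on 0 of the others, and was therefore tested only through the group where it was high. Among the 12 genes well above background on all 8 arrays, 1 rose and 4 fell. Adcy2, an adenylyl cyclase, rose by 1.03 (SE 0.17, limma adjusted p = 0.00284; 0.55 with normexp background correction), and the cyclases Adcy3 and Adcy4 fell by 0.85 and 0.43 on the log2 scale. The falls of Adcy3 and Adcy4 were lost with normexp background correction (adjusted p = 0.0541 and 0.243). That of Adcy4 was also lost without control array 2 (0.0512) and with the replicate number as a block (0.0525). The list's count of falls dropped to 2 without control array 1 or 4 and to 1 without control array 2.

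None of the 4 genes in the list of kinase inhibitors (Pkia, Pkib, Pkig) and the related kinase Prkx passed with limma, where 2 were lower at an unadjusted p under 0.05, and their adjusted p-values ran from 0.0553 to 0.591. Without PMSG array 2 the list had 1 fall, and under median centring it had 2. Of 19 A-kinase anchoring proteins, 5 rose and 6 fell (57.9%), with a median of 0.08. Akap14 and Akap8l rose by 1.41 (SE 0.28, limma adjusted p = 0.00530) and 1.18 (SE 0.19, adjusted p = 0.00227). Foxj1, one of the oviduct and surface epithelium markers summed below, named here because of its values, rose by 1.67. The part of such cells in the rise of Akap14 was not tested. Map2, a microtubule protein that binds type II regulatory subunits, fell by 1.08, and Akap2 fell by 1.01. With normexp background correction the difference of Map2 was -0.57. The count of rising anchoring proteins was 2 under median centring, and 3 without control array 1, 2 or 4.

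Of 13 cyclic AMP phosphodiesterases, which degrade cyclic AMP, 1 rose and 3 fell, with a median of 0.08. Pde2a rose by 0.74 (limma adjusted p = 0.0125), a call lost under median centring (0.0636). Pde4b fell by 1.57 (adjusted p = 0.00515) and Pde4d by 1.32 (adjusted p = 0.0320), with another Pde4d probe at -0.50. With normexp background correction these were -0.73 and -0.84. The Pde4d call was lost without any single array other than PMSG array 2, with adjusted p-values from 0.0533 to 0.0738. It was also lost with the replicate number as a block (0.058). Without PMSG array 4, the count of rising phosphodiesterases was 3. Of 5 other cyclic AMP effectors, Rap1a and Rap1b, small G proteins downstream of the exchange factors that bind cyclic AMP, fell by 0.42 and 0.59, and none rose, also at an unadjusted p under 0.05 (limma). Another Rap1a probe stood at 0.10, and with the replicate number as a block the Rap1a call was lost (limma adjusted p = 0.0506).

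Of 11 tested relatives and coactivators of Creb1, 2 rose and 2 fell, with a median of 0.30 that was 0.18 without PMSG array 2. Creb3l1, a factor released from the membrane of the endoplasmic reticulum, fell by 1.51 (SE 0.12, limma adjusted p = 1.19e-04), and its relative Creb3 by 0.58. The coactivators Ep300 and Crtc2 stood at 0.38 and 0.36 (limma adjusted p = 0.0267 and 0.0437) and both lost their calls under median centring (0.355 and 0.216). Without any one of control arrays 1, 3 or 4 no gene of this list passed upward, and without PMSG array 4 the count was 4; it was 1 without each of the other 4 arrays.

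Of 11 tested early target genes of Creb1, 4 fell and none rose (limma; 1 was higher at an unadjusted p under 0.05), with a median of -0.46. That median varied with single arrays, from -0.22 without control array 3 and -0.31 without PMSG array 4 to -0.85 without control array 4, -0.89 without PMSG array 3 and -1.12 without control array 2. Dusp1, a phosphatase of MAP kinases, fell by 1.86 (SE 0.21, limma adjusted p = 0.00044; -1.04 with normexp background correction) and Junb, a subunit of AP-1, by 1.40 (SE 0.25, limma adjusted p = 0.00336). Without PMSG array 4, 1 gene of the list rose. Of 13 gonadotropin and cyclic AMP responsive ovary genes, 8 fell and none rose (61.5%; limma, none higher at an unadjusted p under 0.05 either), with a median of -1.32. The falls include Ereg, named here because of its values, which was well above background on the 4 arrays labelled control and on 0 of the others, and was therefore tested only through the group where it was high. Among the 12 genes well above background on all 8 arrays, 7 fell, with a median of -1.15. The epidermal growth factor-like ligand Areg fell by 4.08 (SE 0.45, limma adjusted p = 4.49e-04), with differences from -4.59 to -2.73 over the alternatives. Cyp11a1, which starts steroid synthesis from cholesterol, fell by 3.36 (SE 0.31, limma adjusted p = 2.32e-04). All lists were chosen with results of these data known, so they are no independent evidence of a direction.

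**Figure D4:**
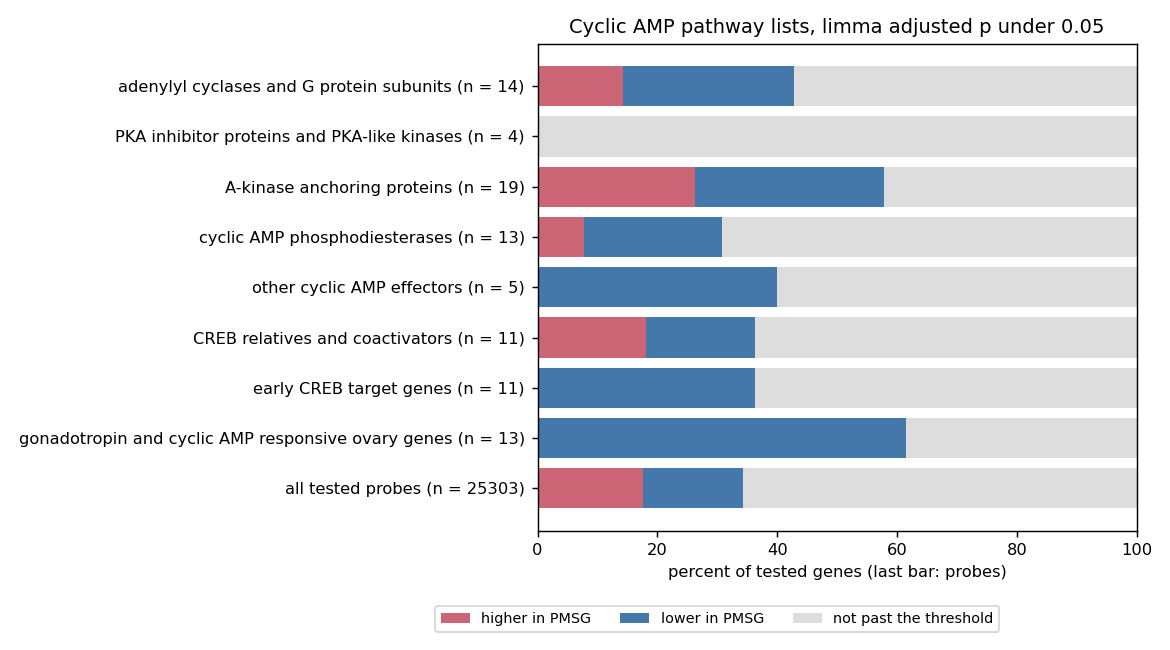
Percent of tested genes of each cyclic AMP pathway list that were higher, lower or not past the threshold in arrays labelled PMSG (limma adjusted p under 0.05), with all 25303 tested probes as the last bar. The responsive ovary genes had the most falls, 8 of 13, and the kinase inhibitor list had no call.

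Markers of several cell types moved with the label, so the changes of the kinase genes sit beside a change in the markers of the tissue. The summed linear signal of 12 oocyte genes, in units of the 75th percentile, was 3.81 to 6.78 on arrays labelled control and 13.9 to 27.6 on arrays labelled PMSG, and all 12 rose. That of 9 macrophage and leukocyte genes was 11.1 to 13.6 against 16.5 to 19.4, with 5 higher, and that of 8 oviduct and surface epithelium genes 11.3 to 15.2 against 15.7 to 29.6, with 5 higher. That of 10 endothelial genes was 21.9 to 25.5 against 17.8 to 19.3, with 5 lower and 1 higher. A linear sum leans towards the brightest probes of its list, such as Kdr among endothelial and Inha among granulosa genes, named for their brightness. The sums of the granulosa, theca, fibroblast and smooth muscle, adipocyte, red blood cell and striated muscle lists overlapped between the labels. Single genes of these lists still passed (limma), with 2 of 6 granulosa genes higher, 2 of 6 theca and interstitial genes higher and 2 lower, and 3 of 8 fibroblast and smooth muscle genes higher. Of 7 adipocyte genes 1 was higher, of 5 red blood cell genes 1 was lower, and of 5 striated muscle genes 1 was higher and 1 lower. Over all tested probes 34.2% passed, 17.6% higher and 16.6% lower. Granulosa (33.3%), fibroblast and smooth muscle (37.5%) and striated muscle genes (40%) lay near that share. Adipocyte (14.3%) and red blood cell genes (20%) lay below it. The other lists lay above it, from 55.6% to 100%. None of these shares was tested against the background. Named here because of their values, Amh, made by granulosa cells, differed by 3.03, Insl3, made by theca cells, by 2.60, and the luteinising hormone receptor gene Lhcgr by -1.93. The rest of these lists is named to complete them. Among theca genes Star differed by -2.75 and Ptch1 by 0.79, while Cyp17a1 (-0.22) and Hsd3b1 (0.07) did not pass. Among granulosa genes Esr2 differed by 0.95, while Fshr (0.34), Foxl2 (0.19), Inha (-0.39) and Nr5a1 (-0.36) did not pass. No marker was below background on all arrays. The part of these cell types in the results for the kinase genes and the pathway lists was not tested.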

How the data were processed

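Scanner intensity per spot comes from Agilent Feature Extraction 11.5.1.1, per the file headers, which also record spatial and multiplicative detrending and the use of surrogates for dim spots. The authors also deposited log2 values per probe and array; these matched log2 intensity minus the 75th percentile of the same array (lowest correlation 0.9984), without centring of probes. Log2 processed signals of spots not called as outliers were averaged per probe and scaled to the 75th percentile of each array, from 58717 spots. Probes well above background on at least 4 of 8 arrays entered a limma fit (3.58.1, R 4.3.3) without covariates. The procedure was tested on simulated data. Probe coordinates are those of the files (rn4), and promoter sequences are RefSeq's (GRCr8). The members and the gene lists were chosen with earlier results of these data known. The members are named with every probe, as are, per list and direction, up to 2 genes with the largest called difference among those well above background on all 8 arrays, and the nearest 3 profiles of the highest and the lowest called member; other names are marked where they stand. Of the genes in the pathway lists, Popdc3, Sik2, Sik3, Fosb and Cyp19a1 were not analysed here under these names, and 11 dim ones were not tested. Of the marker genes, Kitl, Cyp19a1 and Hba1 were not analysed under these names, and the dim Myh1 and Myh2 were not tested. Alternatives covered background correction, normalization, filters, blocks, array weights and left-out arrays.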

Additional observations from a re-analysis of the deposited data

Results flagged for a closer look

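Among 34 groups of 4 values examined (13 probes and 4 ratios in each label), 5 had 1 array far from the others, where chance gives about 1 in 20, here 1.7. The groups are not independent, since several probes read the same gene and the ratios reuse probes already counted. No excess over chance can therefore be read from this count. At the coding-end probe of Prkaca, control array 3 stood at -1.78 against -2.57 to -2.47 (gap 0.866 of the group's range) and PMSG array 4 at -3.02 against -2.68 to -2.66 (gap 0.933). At the first-exon probe of Crem, PMSG array 2 stood at -5.27 against -6.53 to -6.46 (gap 0.941), but PMSG arrays 1 and 3 were not well above background there, so the size of this gap is not measured. The log2 ratio of Prkar2a to Prkar2b was -9.10 on control array 3 against -9.97 to -9.88 (gap 0.888) and -10.01 on PMSG array 4 against -9.18 to -9.07 (gap 0.888).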

How the results depend on the processing

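Prkar1a and Prkar1b kept their direction and their call under all 17 alternatives, with log2 differences of -0.943 to -0.647 and 0.703 to 0.910. The count of probes differing between the labels was lowest when control array 4 was left out (6552) and highest when PMSG array 4 was left out (11382). Deviations of same-numbered arrays from their group means had correlations of -0.0192 to 0.183. Differently numbered arrays were not compared, so these values cannot decide whether the numbers pair the arrays. The replicate block left 7346 probes and 2 of the 4 member calls. Prkar2b at -0.499 (limma adjusted p = 0.0887) and Creb1 at -0.401 (0.0542) were no longer called. This block also ended the calls of Adcy4 (0.0525), Pde4d (0.058), Rap1a (0.0506), Crtc2 (0.0991) and Ep300 (0.0782). The slide row block also ended the Prkar2b call (-0.499). Normexp background correction gave 0.0257 for Prkar2a, 0.0369 for Prkacb, -0.224 for Creb1 and 0.086 for the first-exon probe of Crem. Quantile normalization brought Prkar2a (-0.369) past the threshold, and with it the ratios Prkar1a to Prkar1b (-1.51), Prkaca to Prkacb (0.371) and Creb1 to Crem (-1.02), each at an adjusted exact permutation p of 0.0381. A single pair could not pass this adjustment, so these calls rest on several pairs together and are no stronger evidence for any one ratio. Without quantile normalization the ratio Prkar1a to Prkar1b differed by more (-1.65) and did not pass (adjusted exact permutation p = 0.114). Median centring gave -0.123 for Prkaca and array weights 0.0581 for Prkacb. The mean of both Prkaca probes gave -0.188, and the ratio of that mean to Prkacb -0.137. Leaving out single arrays gave -0.276 to 0.0729 for Prkar2a, -0.621 to -0.415 for Prkar2b, -0.0128 to 0.121 for Prkaca, -0.146 to 0.121 for Prkacb and -0.0295 to 0.631 for Crem. For the probes of coding ends II and I of Crem it gave -0.0228 to 0.657 and -0.105 to 0.713. The cause was not tested in these cases. The probe filter at all 8 arrays leaves out the first-exon probe of Crem, and with single arrays left out no ratio passed (adjusted exact permutation p from 0.114 up). Alternatives for the pathway lists and their genes were chosen after seeing the data. The first-exon probe of Crem was at or near background, which limits what it can show.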

Other observations

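Genes other than Crem were also high in PMSG array 2 relative to the other arrays labelled PMSG. They are named because of their values. Nr4a3, an orphan nuclear receptor and early target of Creb1, stood at 0.63 there, against -4.93 to -1.62 on the other arrays labelled PMSG and -4.01 to -3.52 on arrays labelled control. Its relative Nr4a1 stood at 2.37 against -0.06 to 0.41, within the control range of 1.97 to 2.59. Sik1, a kinase that restrains the Creb1 coactivators, stood at 3.03 against 1.44 to 1.95, with controls at 1.51 to 1.96. Star, which carries cholesterol into mitochondria, stood at 3.81 against 0.99 to 1.92, below the controls at 4.68 to 4.92. Areg stood at -3.23 against -5.33 to -5.11, below the controls at -0.90 to -0.29. Pde4d stood at -2.32 against -4.46 to -3.55, within the control range of -2.33 to -2.04. Of 11 tested early targets, 6 were highest in this array among the arrays labelled PMSG, as were 17.5% of all tested probes. Control array 4 was likewise the highest of its label for 6 of the 11, and for 21.5% of all tested probes.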
